A study of Mus musculus with 14 samples.

Results

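The tumour necrosis factor (TNF) family ligands are small trimeric proteins, made as membrane proteins or secreted, through which T cells signal to neighbouring cells. The 10 ligand genes Tnf, Lta, Ltb, Fasl, Cd40lg, Tnfsf8, Tnfsf10, Tnfsf11, Tnfsf14 and Tnfsf4 were followed in mouse CD4+ T cells polarised towards Th17, Treg or Th1 cells, with acetate or without it. They were found by their exact gene symbol in the platform annotation, which gave 15 probe sets, and the brightest probe set of each gene over the 14 arrays, by mean log2 value, stands for it. The 10 genes are among 18193 genes named on the array, and all 10 passed the filter on low values, as did 10916 genes in all.

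The cells came from mouse spleen with peripheral and mesenteric lymph nodes, and every culture received human IL-2 at 100 U/ml. Th17 cultures received in addition human TGF-b1 at 5 ng/ml, mouse IL-6 at 20 ng/ml, mouse IL-1b, IL-23 and IL-21 at 10 ng/ml each, mouse TNF-a at 20 ng/ml, and antibodies to IL-4 and to IFN-gamma. The protein made from one of the genes studied here was thus part of the Th17 medium alone. Treg cultures received TGF-b1 at 5 ng/ml, and Th1 cultures IL-12 at 10 ng/ml with an antibody to IL-4. Acetate, a short chain fatty acid, was added at 10 mM to the cultures labelled C2; for Treg and Th1 cultures the treatment protocols write acetone at the same concentration, while the design text gives sodium acetate for all of them. Th17 cultures had 3 control and 3 acetate arrays, while Treg and Th1 cultures had 2 of either. Culture lasted 5 days by the protocols, but 6 to 7 by the design text. The labels give neither strain nor age, and do not say that the arrays within a group stem from different mice or wells, so the p-values reflect the spread among these arrays, which may be technical.

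TNF and lymphotoxin alpha act through the receptors TNFR1 and TNFR2, and lymphotoxin alpha joins lymphotoxin beta in a membrane complex that signals through the lymphotoxin beta receptor to stromal and myeloid cells. Fas ligand and TRAIL, made from Fasl and Tnfsf10, can trigger cell death through receptors that carry a death domain. CD40 ligand, CD30 ligand (Tnfsf8), OX40 ligand (Tnfsf4), LIGHT (Tnfsf14) and RANKL (Tnfsf11) carry co-stimulatory or differentiation signals between T cells, B cells, dendritic cells and other cells. In T cells many of these genes are switched on by antigen receptor signals through the NFAT and NF-kB transcription factors.

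Ltb, Tnf and Lta lie side by side on chromosome 17 in the RefSeq gene table, with only a microRNA gene, Mir6973a, between Ltb and Tnf. Ltb fell and Lta rose with acetate in the mean over the subsets, while no acetate difference of Tnf was called. The sequences before the starts of these neighbours are shown for this reason, and that of Tnfsf8 because its transcript fell in every subset. Each is the RefSeq sequence of the 250 bases before the gene's start in build GRCm38.p6, 5' to 3' on the gene's strand. They are chr17:35194257-35194506 on the plus strand for Ltb, and on the minus strand chr17:35202008-35202257 for Tnf, chr17:35205352-35205601 for Lta and chr4:63861285-63861534 for Tnfsf8. Capitals mark the NFAT core GGAAA and the NF-kB consensus, searched on both strands.
Ltb: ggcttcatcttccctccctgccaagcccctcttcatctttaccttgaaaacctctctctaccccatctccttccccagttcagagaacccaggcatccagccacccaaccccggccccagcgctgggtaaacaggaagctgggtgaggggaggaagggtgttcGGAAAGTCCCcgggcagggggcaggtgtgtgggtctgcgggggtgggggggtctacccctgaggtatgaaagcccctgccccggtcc
Tnf: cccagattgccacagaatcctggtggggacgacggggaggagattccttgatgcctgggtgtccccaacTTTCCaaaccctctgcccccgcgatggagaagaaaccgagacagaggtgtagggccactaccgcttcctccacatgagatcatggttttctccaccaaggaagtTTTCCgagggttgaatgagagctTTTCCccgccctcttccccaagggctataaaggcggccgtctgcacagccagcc
Lta: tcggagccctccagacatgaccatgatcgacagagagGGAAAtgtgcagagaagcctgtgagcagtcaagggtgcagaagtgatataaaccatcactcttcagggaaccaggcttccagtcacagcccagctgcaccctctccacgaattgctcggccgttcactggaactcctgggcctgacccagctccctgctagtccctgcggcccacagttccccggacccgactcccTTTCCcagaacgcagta
Tnfsf8: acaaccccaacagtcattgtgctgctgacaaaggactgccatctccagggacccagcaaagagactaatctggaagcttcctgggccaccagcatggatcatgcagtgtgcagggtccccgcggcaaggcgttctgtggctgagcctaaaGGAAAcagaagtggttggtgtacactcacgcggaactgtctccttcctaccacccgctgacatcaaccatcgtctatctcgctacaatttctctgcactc
Of the 10 genes 8 had such a window in the table, and Cd40lg and Tnfsf4 had none. The NFAT core, 5 letters long, was present in 8 of 8 windows, against 55.6% of all 32851 windows of this length. It occurred at 3 places in the Tnf window, 2 in the Lta window and 1 each in those of Ltb and Tnfsf8. The NF-kB consensus was present in the Ltb window only, from -87 to -78, where it overlaps the NFAT core, and in 3.9% of all windows. The AP-1 motif TGANTCA was found in the Tnfsf14 window and in 6.75% of all windows. The T-box motif GGTGTGA was found in 0 of 8 windows and in 3.33% of all. These matches describe letters, not bound sites.

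The deposited signals had trimmed means from 53.2 to 116.0 over the arrays, so all levels and tests below use quantile-normalised values. A level is the normalised signal on a linear scale, and a difference is on the scale of log2(signal + 3), which understates changes of low signals. Within groups, 10 pairs of arrays had r = 0.94 to 0.983 across genes. The 81 pairs from different groups had r = 0.866 to 0.958, so the ranges overlapped. Il17a and Foxp3 matched their labels in the untreated cultures: Il17a had a level of 652 in Th17 against 8.73 in Th1 cultures, and Foxp3 332 in Treg against 12.9 in Th1 cultures. Foxp3 was also higher in Th17 than in Th1 cultures, by 2.40 (limma, adjusted p = 0.00128). Against Th1 cultures, Il12rb2 differed by -2.49 in Th17 and -1.59 in Treg cultures (limma, adjusted p = 0.00125 and 0.0299). Tbx21 differed by -2.69 and -0.68 in this order (adjusted p = 0.0062 and 0.558). Ifng passed in neither, at -1.62 and -0.48 (adjusted p = 0.348 and 0.877). With acetate, Foxp3 was at 59.1 in Treg cultures. Markers of T cells were lower with acetate: their summed level over 6 genes ranged from 9927 to 11276 in Th17 control and 6402 to 9669 in Th17 acetate arrays, from 12880 to 14333 and 8661 to 9612 in Treg, and from 12140 to 12384 and 7198 to 9012 in Th1 arrays. Cd3d, Cd3e, Cd3g, Cd4 and Cd2 fell and Cd28 rose in the mean over subsets. The summed level of 7 macrophage and dendritic cell markers went from 77.3 to 101 up to 108 to 206 in Th17 arrays and from 128 to 150.3 up to 212 to 229 in Treg arrays with acetate, and from 125 to 188 to 135 to 212 in Th1 arrays. Cd68 carried it, with mean levels of 18.0 and 91.5 in Th17 and 48.9 and 118 in Treg control and acetate cultures, and was the only marker of the list called, in Th17 cultures and in the mean over subsets. In Th17 cultures Csf1r, Adgre1, Itgax and Flt3 had lower means with acetate, and the median difference of the 4 markers tested was -0.34. That of the CD8 T cell markers Cd8a and Cd8b1 went from 51.6 to 179 up to 180.1 to 332 in Th17, from 196 to 217 up to 259.8 to 268 in Treg and from 36.6 to 62.6 to 62.3 to 105 in Th1 arrays. That of 4 NK cell markers, carried by Klrd1 and Klrk1, was 449 to 460.2 in Th1 control and 1262 to 1614 in Th1 acetate arrays, where Klrk1 rose by 2.66. It was 935 to 1616 and 557 to 1522 in Th17 and 1599 to 2290 and 1565 to 1580 in Treg arrays, while Ncr1 and Klra8 stayed under 9.10, the level of the filter, in every group. The summed level of 4 B cell markers, carried by Cd79b at 18.8 to 72.3 over the group means, was 33.1 to 65.5 in Th17 control and 51.4 to 75.8 in Th17 acetate arrays, 87.6 to 95.2 and 83.0 to 87.9 in Treg, and 32.5 to 65.2 and 33.7 to 58.3 in Th1 arrays, with Ms4a1 under the level of the filter in every group. That of 4 mast cell and basophil markers was lower in Th17 acetate arrays, at 25.3 to 45.3 against 76.0 to 112, where Kit fell by 1.57. It was 66.2 to 158 in control and 66.4 to 90.9 in acetate arrays of Treg, and 12.1 to 32.7 and 30.8 to 38.5 in those of Th1 cultures. The part of these cells in the results below was not tested. In such bulk samples fewer cells that make a transcript and less transcript per cell cannot be told apart.

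**Figure D1:**
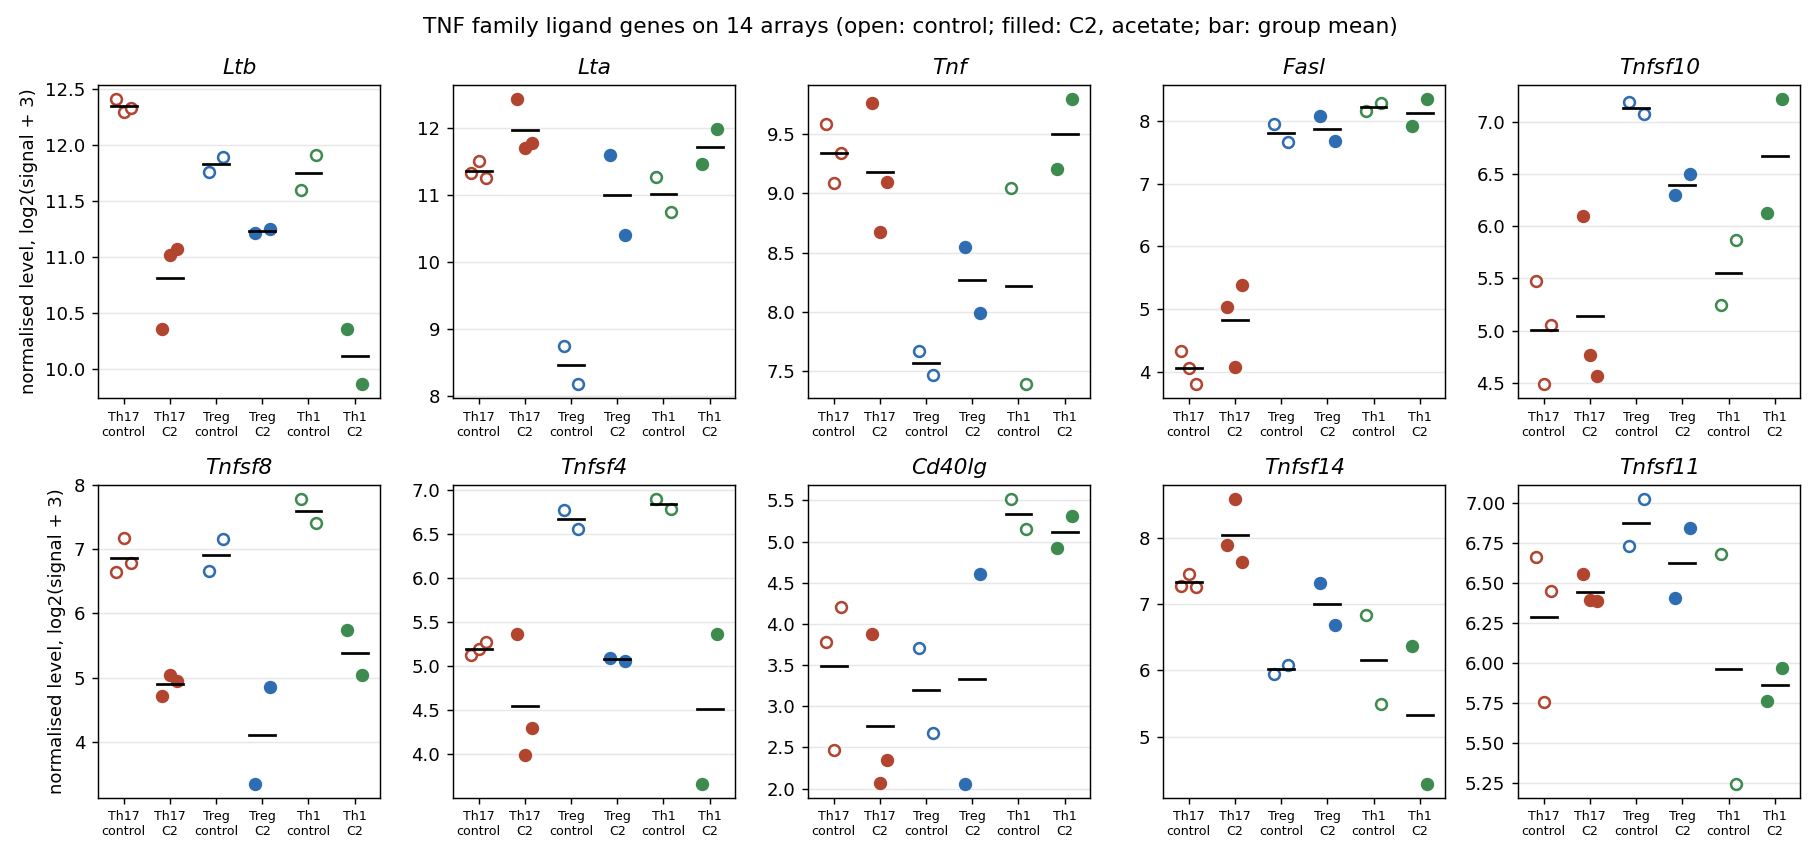
Level of each of the 10 ligand genes on the 14 arrays, as the normalised log2(signal + 3) on the vertical axis, with a scale of its own for each gene. Points are arrays, open for control and filled for acetate (C2), coloured by subset, and bars are group means. Acetate arrays lie below control arrays for Tnfsf8 and Ltb in all 3 subsets, and Fasl is low in all 6 Th17 arrays.

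Ltb, which encodes lymphotoxin beta, was the member with the highest mean, in the top percent of genes on the array. Its level was 5439, 5024 and 5152 in the Th17 control arrays and 1307, 2072 and 2143 in the Th17 acetate arrays. It was 3468 and 3798 in Treg control against 2367 and 2438 in Treg acetate arrays, and 3094 and 3841 in Th1 control against 1307 and 929 in Th1 acetate arrays. The acetate arrays lay below the control arrays in all 3 subsets without overlap. Ltb fell with acetate by 1.53 ± 0.18 in Th17 cultures (log2 difference ± SE, adjusted p = 1.92e-04, limma, with p adjusted by Benjamini-Hochberg over every gene tested, as throughout) and by 1.64 ± 0.22 in Th1 cultures (adjusted p = 0.00336). The Treg difference of -0.59 ± 0.22 did not pass (adjusted p = 0.0955), with a 95% interval from -1.07 to -0.12; it passed without Th17 acetate replicate 1 (adjusted p = 0.0228). The mean over the subsets fell by 1.26 ± 0.12 (adjusted p = 2.07e-05).

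Lta, the gene next to Tnf, encodes lymphotoxin alpha, the partner of lymphotoxin beta in the membrane complex. Its level moved the other way. In Treg cultures it was 429.6 and 289 in the control arrays and 3114 and 1358 in the acetate arrays a 6.23-fold higher mean. Lta rose there by 2.54 ± 0.36 (adjusted p = 0.00115). In Th17 cultures it was 2591, 2921 and 2444 in control against 5542, 3331 and 3512 in acetate arrays, and in Th1 cultures 2483 and 1718 against 2830 and 4059.9. The acetate arrays lay above the control arrays in these subsets too, but the differences of 0.60 ± 0.29 and 0.71 ± 0.36 did not pass (adjusted p = 0.160 and 0.260). The mean over the subsets rose by 1.28 ± 0.19 (adjusted p = 3.46e-04). The order of levels thus had untreated Treg cultures lowest, at a mean of 359 (SD 99.7, n = 2), below the ranges of all other groups, while each other neighbour in the order overlapped with the next.

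Tnf, the founding member of the family, had levels of 766, 541 and 646 in Th17 control arrays and 866, 404 and 543 in Th17 acetate arrays. In Treg cultures it was 201 and 174 in control against 370.1 and 251 in acetate arrays, and in Th1 cultures 526 and 165 against 588 and 884. The Th17 arrays overlapped, while in Treg and Th1 cultures both acetate arrays lay above both control arrays. None of the differences passed: -0.16 ± 0.37 in Th17 (95% interval -0.96 to 0.63, adjusted p = 0.792), 0.70 ± 0.45 in Treg (adjusted p = 0.358) and 1.28 ± 0.45 in Th1 cultures (interval 0.30 to 2.26, adjusted p = 0.122). Th1 control replicate 1 lowered the Th1 value, and whether the Th1 difference and the mean over subsets passed depended on this array. Without it the Th1 difference was 2.10, with only 1 Th1 control array left. The mean over the subsets was 0.60 (adjusted p = 0.0773), and 0.88 without that array.

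Tnfsf8 encodes CD30 ligand, whose receptor CD30 is found on activated lymphocytes. Its level was 97.1, 141 and 107 in Th17 control arrays and 23.1, 29.8 and 27.7 in Th17 acetate arrays. In Treg cultures it was 98.8 and 140.1 against 7.20 and 26.0, and in Th1 cultures 218 and 167 against 50.7 and 29.8. The acetate arrays of all 3 subsets lay below all 7 control arrays. Tnfsf8 fell by 1.98 ± 0.33 in Th17 (adjusted p = 0.00171), by 2.81 ± 0.41 in Treg (adjusted p = 0.00139) and by 2.21 ± 0.41 in Th1 cultures (adjusted p = 0.0155), and by 2.33 ± 0.22 in the mean over subsets (adjusted p = 2.07e-05). Control means were 4.29, 7.19 and 4.78 times the acetate means in the same order. In Treg acetate replicate 1 the level was under that of the filter, so the Treg size depends on the pseudocount. The Th1 call was lost without Th1 control replicate 2 (adjusted p = 0.0577) and without Th1 acetate replicate 2 (adjusted p = 0.105).

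Tnfsf4 encodes OX40 ligand, which co-stimulates T cells through OX40. In Th1 cultures its level was 116 and 107 in control and 9.68 and 38.0 in acetate arrays, and in Treg cultures 106 and 91.0 against 31.1 and 30.3. The groups did not overlap in either subset. In Th17 cultures it was already low without acetate, at 31.8, 33.5 and 35.5, and overlapped with the acetate arrays at 38.0, 12.9 and 16.6. Tnfsf4 fell by 2.33 ± 0.48 in Th1 (adjusted p = 0.0243) and by 1.59 ± 0.48 in Treg cultures (adjusted p = 0.0471); the Th17 difference of -0.64 ± 0.39 did not pass (adjusted p = 0.265). The Treg call stands just inside the threshold and was made in 8 of 23 alternative analyses. It was lost without any of the 4 Treg arrays (adjusted p = 0.148 to 0.212). The Th1 call was lost without Th1 control replicate 1 or 2 or Th1 acetate replicate 1 (adjusted p = 0.0563, 0.0978 and 0.0521). The mean over subsets fell by 1.52 ± 0.26 (adjusted p = 8.42e-04) and kept its call in all 23 alternatives, as did those of Tnfsf8, Ltb and Lta.

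**Figure D2:**
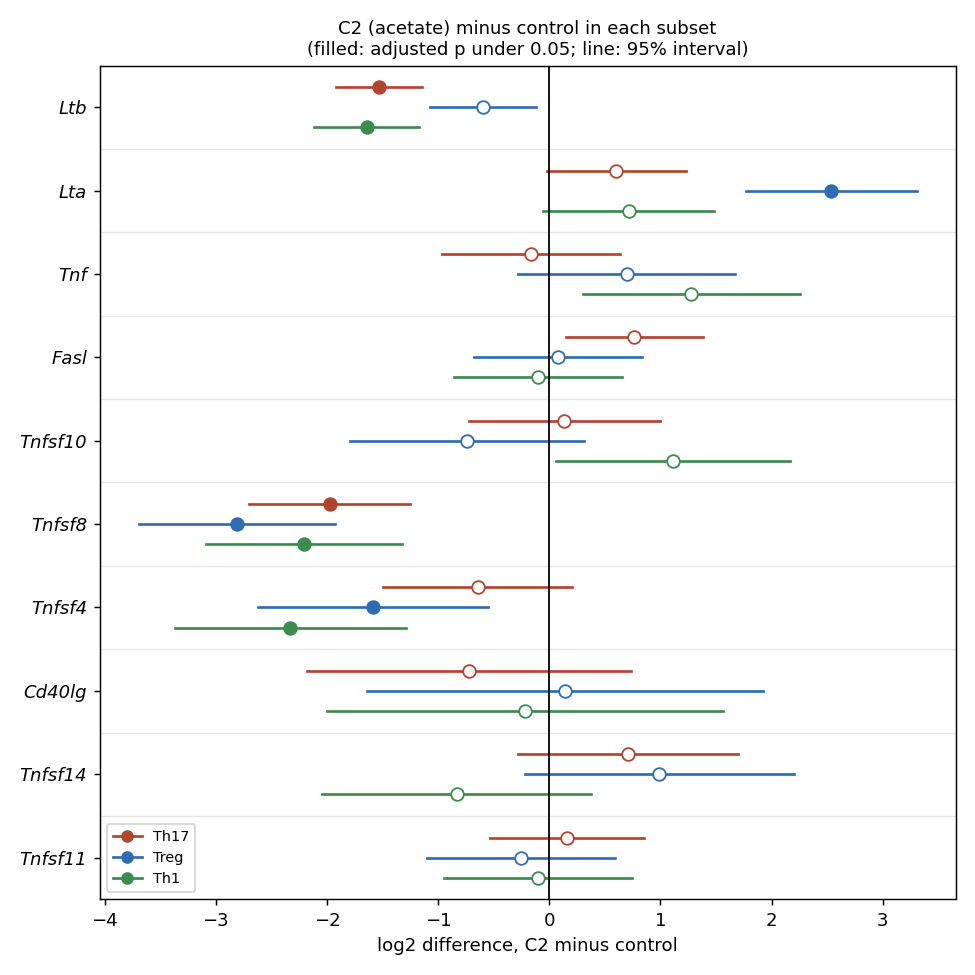
Log2 difference of acetate (C2) minus control for each ligand gene on the horizontal axis, in Th17, Treg and Th1 cultures. Points are limma estimates with 95% intervals as lines, filled where the adjusted p was under 0.05. Tnfsf8 is filled on the left in all 3 subsets, Ltb in Th17 and Th1, Tnfsf4 in Treg and Th1, and Lta on the right in Treg cultures.

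With acetate 0 of the 10 ligand genes were called higher and 2 lower in Th17 cultures, where 20.3% of all genes tested were called, 11.7% higher and 8.67% lower. In Treg cultures it was 1 higher and 2 lower, beside 12.5% of all genes, 7.05% higher and 5.45% lower. In Th1 cultures it was 0 higher and 3 lower, beside 4.02% of all genes, 2.1% higher and 1.92% lower. For the mean over subsets it was 1 higher and 3 lower, beside 31.8% of all genes, 17.7% higher and 14.1% lower. The counts in Th17 cultures and in the mean lie near this background. The background itself depends on single arrays. The 1365 genes called in Treg cultures fell to 358 without Treg acetate replicate 1, to 619 without the other Treg acetate array, and to 499 or 481 when either untreated Treg array was left out. The 439 called in Th1 cultures became 958 and 74 without Th1 acetate replicates 1 and 2, and 90 without Th1 control replicate 2. They ranged from 221 to 764 when Th17 acetate replicate 1, a Th17 control or a Treg array was left out. The 2220 called in Th17 cultures became 1365 to 1429 without any of the Th17 control arrays or Th17 acetate replicate 2. Higher calls made up 57.4%, 56.4%, 52.2% and 55.5% of all calls in these 4 comparisons, and 24.2%, 45.8%, 79.8% and 44.1% with signals as deposited. For Th17, Treg and Th1 cultures the median difference of the 10 genes was -0.01, -0.09 and -0.16, against 0.01, 0.03 and 0.03 over all genes tested. A limma F test of whether the acetate effect differed between the subsets called 0 of the 10 genes and 0.797% of all genes, or 87, which became 1 without Treg acetate replicate 1 and 531 without Th1 acetate replicate 1, and moved by over 1.5 times without 12 of the 14 arrays. At an unadjusted p under 0.05 it had 3 members, Lta (adjusted p = 0.101), Ltb (adjusted p = 0.169) and Tnfsf4 (adjusted p = 0.342). The called and uncalled effects in different subsets are therefore not shown to differ. Lta passed this F test without Th17 acetate replicate 1, and Tnfsf14 without Th1 acetate replicate 1.

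Among the death ligands, Fasl separated the subsets most widely. Its level was 17.1, 13.7 and 11.0 in Th17 control arrays and 29.8, 13.9 and 38.8 in Th17 acetate arrays. It was 243 and 199.5 in Treg control and 267 and 203 in Treg acetate arrays, and 284 and 311 in Th1 control and 238 and 323 in Th1 acetate arrays. All 6 Th17 arrays lay below all 8 other arrays. Untreated Th17 cultures were lower than untreated Th1 by a difference of -4.16 ± 0.32 (adjusted p = 8.58e-06) and than untreated Treg cultures by -3.74 ± 0.32 (adjusted p = 1.88e-05). With acetate the same differences were -3.30 ± 0.32 (adjusted p = 7.37e-05) and -3.05 ± 0.32 (adjusted p = 4.76e-04). The other Fasl probe set gave differences of -3.68, -2.74, -2.46 and -2.28 in this order. No acetate difference of Fasl passed: 0.77 ± 0.29 in Th17 (adjusted p = 0.0753), 0.08 ± 0.35 in Treg and -0.10 ± 0.35 in Th1 cultures. The Th17 value passed without Th17 acetate replicate 2 (1.14, adjusted p = 0.00819).

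Tnfsf10 encodes TRAIL. Its level was 41.4, 19.5 and 30.2 in Th17 control and 65.3, 24.2 and 20.7 in Th17 acetate arrays, 143 and 132 in Treg control and 75.5 and 87.3 in Treg acetate arrays, and 34.9 and 55.3 in Th1 control and 66.7 and 146 in Th1 acetate arrays. On this probe set untreated Treg cultures had the highest mean, with a range that overlapped that of the Th1 acetate arrays. The difference of untreated Th17 from Treg cultures was -2.13 ± 0.44 (adjusted p = 0.00732; 0.0718 and 0.0599 without Treg control replicates 1 and 2). With acetate, the Treg arrays lay below and the Th1 arrays above their controls, at -0.74 ± 0.49 and 1.11 ± 0.49, but neither passed (adjusted p = 0.364 and 0.2), and the F test gave an adjusted p of 0.350. The other Tnfsf10 probe sets had acetate differences of 0.03 and 0.34 in Treg cultures, opposite in sign to the chosen one, so that untreated Treg cultures were not their highest group, and 0.58 and 1.90 in Th1 cultures.

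Of the remaining co-stimulatory ligands, none passed in an acetate comparison. Cd40lg, which encodes the ligand that helper T cells show to B cells, was the member with the lowest mean. It ranged from 27.2 to 42.8 over the 4 Th1 arrays and from 1.17 to 21.4 over the 10 Th17 and Treg arrays, so the Th1 arrays lay above all others. The mean log2 levels of the Th17 and Treg groups, 2.76 to 3.48, lay under the 3.60 of the filter, which Cd40lg passed through its Th1 arrays, so its subset differences are given with no test: untreated Th17 minus Th1 cultures was -1.85 and untreated Treg minus Th1 cultures -2.14. Its acetate differences had 95% intervals from -2.18 to 0.73 in Th17, -1.64 to 1.92 in Treg and -2.00 to 1.56 in Th1 cultures, which leaves room for sizeable changes either way.

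Tnfsf14 encodes LIGHT, a ligand of the receptors HVEM and the lymphotoxin beta receptor. It was 153, 174 and 151 in Th17 control and 236, 383 and 197 in Th17 acetate arrays, 59.0 and 64.5 in Treg control and 157 and 100.2 in Treg acetate arrays, and 111 and 41.9 in Th1 control and 79.4 and 16.6 in Th1 acetate arrays. Acetate arrays lay above controls in Th17 and Treg cultures and overlapped in Th1 cultures, at 0.71 ± 0.46, 0.99 ± 0.56 and -0.83 ± 0.56, none of which passed (adjusted p = 0.295, 0.287 and 0.415). Without Th1 acetate replicate 1 the Th1 value was -1.87 (adjusted p = 0.0335). Under acetate Tnfsf14 was higher in Th17 than in Th1 cultures by 2.72 ± 0.51 (adjusted p = 0.00824), a call that rests on Th1 acetate replicate 2: without it the difference was 1.67 (adjusted p = 0.0962). Untreated, the same difference was 1.18 ± 0.51 (adjusted p = 0.193). On the other Tnfsf14 probe set the acetate differences were 0.57, 0.65 and -0.83 in Th17, Treg and Th1 cultures.

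Tnfsf11, which encodes RANKL, a driver of osteoclast formation that activated T cells also make, varied least. Its group means ran from 55.3 in Th1 acetate to 115 in Treg control cultures, a range of 1.02 on the log2 scale, and each group overlapped with its neighbour in the order. Its acetate differences were 0.16 ± 0.32, -0.25 ± 0.39 and -0.10 ± 0.39 in Th17, Treg and Th1 cultures. The other Tnfsf11 probe set gave 0.15, 0.10 and 0.18 in this order, opposite in sign in Treg and Th1 cultures. Group means of Fasl spanned 4.16, of Lta 3.50, of Tnfsf8 3.49 and of Tnfsf14 2.72, where the median of all genes tested was 0.87 and the 90th percentile 1.94.

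**Figure D3:**
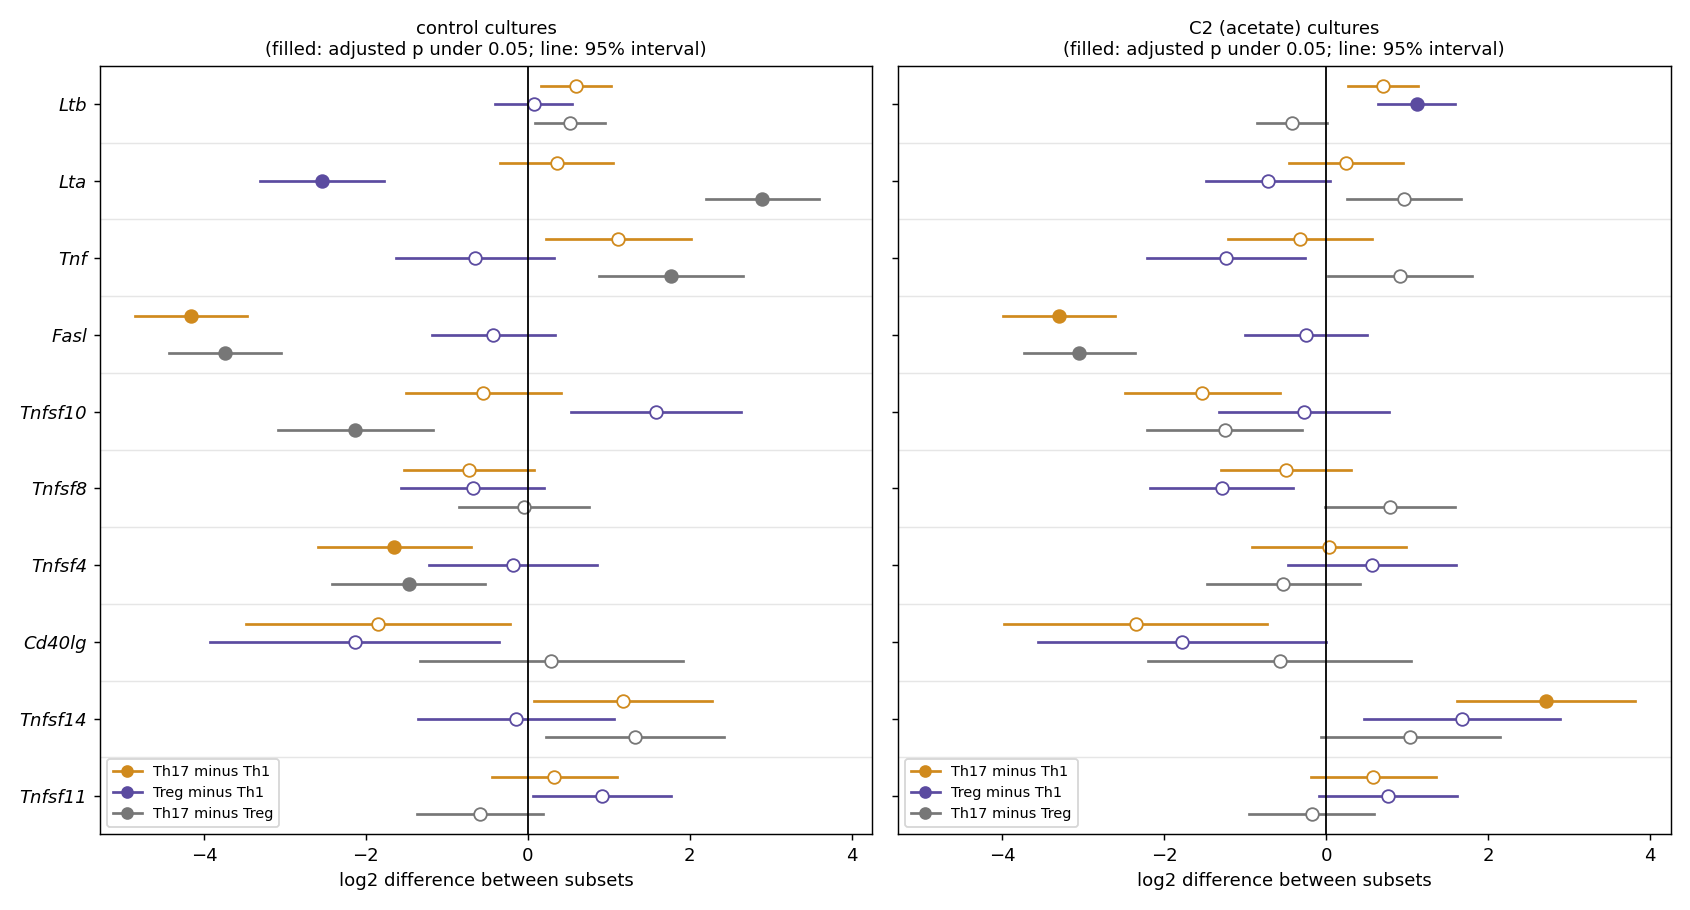
Log2 differences between subsets for each ligand gene, in control cultures on the left and in acetate (C2) cultures on the right. Points are limma estimates with 95% intervals as lines, filled where the adjusted p was under 0.05. Fasl is lowest in Th17 cultures on both sides, and the filled Lta differences of Treg cultures on the left, -2.54 against Th1, are open on the right, at -0.72. Cd40lg is drawn with the others, but its intervals are not read as a test, because it passed the filter through its Th1 arrays.

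Between the untreated subsets 2 of the 10 ligand genes were called for Th17 against Th1 cultures (6.6% of all genes), 1 for Treg against Th1 cultures (5% of all genes) and 5 for Th17 against Treg cultures (11.3% of all genes). Besides Fasl and Tnfsf10, these were Lta, lower in Treg than in Th1 cultures by -2.54 ± 0.36 (adjusted p = 0.00174) and higher in Th17 than in Treg cultures by 2.90 ± 0.32 (adjusted p = 1.17e-04). Tnf was higher in Th17 than in Treg cultures by 1.77 ± 0.41 (adjusted p = 0.0139), a call lost without Treg control replicates 1 and 2 (adjusted p = 0.0788 and 0.123) or Th17 control replicate 1 (adjusted p = 0.0507). Tnfsf4 was lower in Th17 cultures, by -1.65 ± 0.44 against Th1 (adjusted p = 0.0419) and -1.47 ± 0.44 against Treg (adjusted p = 0.0471). These calls were made in 8 and 6 of 22 alternatives and were lost without any array of the groups compared (adjusted p = 0.0934 to 0.191 and 0.0971 to 0.234). Tnf and Tnfsf11 gained a call without Th1 control replicate 1, Tnf for Th17 against Th1 cultures (1.94, adjusted p = 0.0091) and Tnfsf11 for Treg against Th1 cultures (1.63, adjusted p = 0.0277). These comparisons share their control arrays with the acetate comparisons.

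Between the acetate cultures 2 were called for Th17 against Th1 (5.24% of all genes). It was 1 for Treg against Th1 (1.49%) and 1 when Th17 was set against Treg (0.925%). The 163 genes behind 1.49% became 10 without Treg acetate replicate 1 and 756 without Th1 acetate replicate 1, and the 101 behind 0.925% became 18 without Treg acetate replicate 2 and 156 without Th17 acetate replicate 1. These were Fasl and Tnfsf14 as above, and Ltb, higher in Treg than in Th1 cultures by 1.12 ± 0.22 (adjusted p = 0.0324). The Ltb call was made in 12 of 22 alternatives and was lost, among others, without Treg acetate replicate 1 or 2 or Th1 acetate replicate 2 (adjusted p = 0.159, 0.228 and 0.21). The Lta difference of acetate-treated Treg from Th1 cultures, -0.72 ± 0.36, did not pass (adjusted p = 0.345). Without Th17 acetate replicate 1, Ltb and Tnfsf10 also passed for Th17 against Th1 cultures (adjusted p = 0.00352 and 0.00614), and without Th1 acetate replicate 1 Tnfsf14 passed for Treg against Th1 cultures (2.71, adjusted p = 0.00903).

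**Figure D4:**
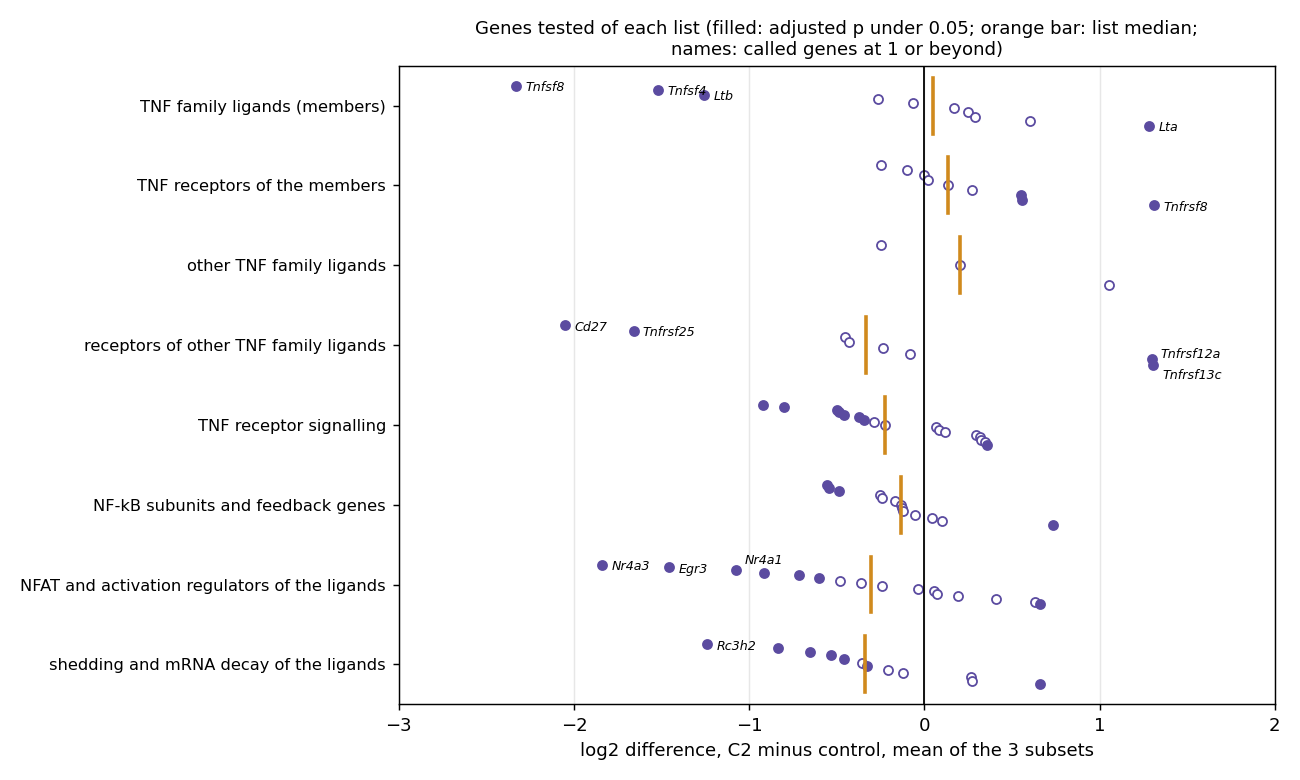
Log2 difference of acetate minus control, as the mean of the 3 subsets, for each gene tested of the ligand family and of 7 further lists. Filled points had an adjusted p under 0.05, the orange bar is the median of a list, and called genes at 1 or beyond in either direction are named. Tnfsf8, Tnfsf4 and Ltb lie on the left and Lta on the right of the ligand line, and the receptor gene Tnfrsf8 lies on the right of the line under it. The Tnfrsf8 mean includes a Treg difference from a control level under that of the filter.

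The receptors were described next, as the partners of these ligands. Of 13 receptor genes of the 10 ligands, 9 were tested, and in the mean over subsets 3 rose with acetate and 0 fell, with a list median of 0.13 against 0.03 over all genes. Tnfrsf8, which encodes CD30, rose by 1.31 while its ligand gene Tnfsf8 fell. Its mean level went from 4.11 to 27.1 in Treg, from 19.1 to 34.9 in Th17 and from 17.5 to 39.4 in Th1 cultures. The Treg control mean lay under 9.10, the level of the filter, which Tnfrsf8 passed through the other groups. The Treg difference of 2.07 is therefore given with no test, and its size depends on the pseudocount. It enters the mean over subsets, so the call of Tnfrsf8 among the 3 rises carries the same limit. In Th17 and in Th1 cultures alone Tnfrsf8 did not pass. Tnfrsf1b, which encodes TNFR2, rose by 0.55 and Tnfrsf22, a decoy receptor of TRAIL, by 0.56. Tnfrsf4, which encodes OX40, did not pass in an acetate comparison, with group means between 2475 and 3058, and neither did Fas. Of 8 receptor genes tested of other family ligands 2 rose and 2 fell. Cd27 fell by 2.05, from 174 to 38.2 in Th17, 749.5 to 124 in Treg and 202 to 69.3 in Th1 cultures, and Tnfrsf25, which encodes the death receptor DR3, by 1.66. Tnfrsf13c, the gene of the BAFF receptor, rose by 1.31 and Tnfrsf12a by 1.30. The Th17 control mean of Tnfrsf13c, 9.17, lay near 9.10, the level of the filter, so the size of its rise depends on the pseudocount. Of 3 other ligand genes tested 0 passed in the mean. Cd70, the ligand gene of CD27, rose in Th17 cultures by 3.09, from a mean of 8.23 to 124 (SD 101, n = 3), with its acetate arrays from 14.7 to 214. The control mean lay under 9.10, the level of the filter, which Cd70 passed through other groups. This rise is therefore given with no test, and its size depends on the pseudocount.

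The lists of genes that act downstream of the receptors or control the ligands held more lower than higher calls. Of 17 signalling genes tested 1 rose and 7 fell in the mean over subsets (median -0.22), among them Traf1 by 0.92, whose product is an adaptor of TNF receptors, the inhibitor of apoptosis gene Birc2 by 0.80 and Cflar by 0.50. Of 13 NF-kB genes 1 rose and 3 fell (median -0.13), with Rel at 0.73 and Rela and Relb at -0.55 each. Of 16 NFAT and activation regulators 1 rose and 6 fell (median -0.30), with Nr4a3 at -1.84, Egr3 at -1.45 and Nr4a1 at -1.08, all immediate early genes. Th17 cultures alone had 3 higher and 5 lower calls of these 16, beside 11.7% and 8.67% of all genes. Treg cultures had 0 and 5, beside 7.05% and 5.45%, and Th1 cultures 0 and 1, beside 2.1% and 1.92%. The higher calls in Th17 cultures include Eomes, whose control mean of 6.04 lay under 9.10, the level of the filter. Eomes passed the filter through other groups, so its call is not read as a test. Of 12 genes of shedding and mRNA decay 1 rose and 6 fell (median -0.34), among them Rc3h2 and Zfp36l1 of mRNA decay at -1.24 and -0.84, and Rhbdf2, needed for the shedding of TNF, at 0.66. The counts for the mean over subsets, here and for the receptors above, stand beside 17.7% of all genes called higher and 14.1% called lower in that comparison.

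The genes most like the 4 most variable members in pattern over the 14 arrays were named by Pearson's r, as a description; the arrays share their subset and treatment. Fasl was most like Hopx (r = 0.94), Serpinb6b (0.93) and Cdkn2c (0.93). Lta was most like Glo1 (0.93), Emp1 (0.93) and Hk2 (0.92), and Tnfsf8 most like Ppm1a (0.96), Tmem186 (0.96) and Cdk13 (0.93). Tnfsf14 was most like Bckdha (0.91), 2310039H08Rik (0.90) and Kif1b (0.90).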

How the data were processed

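Total RNA of CD4+ T cell cultures was measured on Affymetrix arrays; the labels name the Mouse 430 2.0 type for Treg and Th1 samples. The deposited values are 1 linear signal intensity per probe set and array, which the submitters' processing notes tie to MAS5, with no version or scaling target stated. Of 45101 probe sets 34958 carry 1 symbol. Signals were transformed as log2(signal + 3) and quantile-normalised over all probe sets, because the deposited signals were not on a common scale. Genes whose mean deposited log2 value reached the 40th percentile (a signal of 9.10) were tested. The model in limma 3.58.1, under R 4.3.3, had 6 group means, no covariates, 8 residual degrees of freedom and a trend in eBayes. Genes were called at an adjusted p under 0.05. The number of arrays limits the precision. Alternatives were signals as deposited, median centring, other pseudocounts, no filter, averaged probe sets, a replicate block, no trend, and leaving out each array. The members and gene lists were chosen with earlier results of these data known. Named genes were all members, up to 3 called genes per list and contrast, and the 3 most similar genes of 4 members; list genes named as not passing, and further Cd3, Cd4 and receptor values, were added for context.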

Additional observations from a re-analysis of the deposited data

How the results depend on the processing

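Of 24 calls of a member in a comparison, 24 kept their direction in every alternative and 15 kept their call in all of them. The signals as deposited moved the median of all genes tested by 0.62 for untreated Th17 against Th1, 0.41 for Th17 against Treg, -0.29 for acetate in Th17 and 0.23 in Th1 cultures. For untreated Th17 against Th1 cultures they called 4 members in place of 2 (Fasl, Ltb, Tnf and Tnfsf14), and a pseudocount of 1, no filter on low values, the replicate block and no trend called 1 each, losing Tnfsf4. For acetate-treated Treg against Th1 cultures the signals as deposited, the replicate block and no trend called 0 in place of 1, losing Ltb. Over all genes the signals as deposited called 550 in place of 1365 for acetate in Treg, 223 in place of 439 in Th1 and 2303 in place of 3472 in the mean, and 3025 in place of 721, 266 in place of 546 and 103 in place of 163 for untreated Th17 against Th1, untreated Treg against Th1 and treated Treg against Th1 cultures. The share of higher calls was 45.5%, 57.1%, 47%, 61.5%, 72.4% and 46.5% for Th17 against Th1, Treg against Th1 and Th17 against Treg cultures, untreated and then treated, and 96.1%, 76.7%, 85.3%, 74%, 56.3% and 77.9% with these signals. For acetate in Th1 cultures no filter called 288, averaged probe sets 292 and the replicate block 226. The difference of acetate effects had 87 calls, and 15 without a trend and 54 with averaged probe sets. Treated Treg against Th1 cultures had 64 without a trend and 73 with the replicate block, which called 393 and 326 in place of 721 and 572 for Th17 against Th1, untreated and treated. Leaving out single arrays gave 2 to 3 members called for acetate in Th17, 2 to 4 in Treg, 1 to 3 in Th1 and 4 to 5 in the mean; 1 to 3, 1 to 2 and 2 to 6 for untreated Th17 against Th1, Treg against Th1 and Th17 against Treg; 1 to 5, 0 to 2 and 1 to 2 for the same with acetate; and 0 to 1 for the difference of acetate effects. Over all genes it gave 1365 to 2521 calls for acetate in Th17, 358 to 1638 in Treg, 74 to 958 in Th1 and 2739 to 3671 in the mean, 218 to 1012, 134 to 725 and 479 to 1494 between the untreated subsets in the same order, 171 to 1174, 10 to 756 and 18 to 156 between the treated ones, and 1 to 531 for the difference of acetate effects. A lone remaining array was assumed to vary like the other groups. Replicate numbers are not stated to pair arrays: same-numbered Th17 arrays deviated together at r = 0.153, 0.159 and -0.0635, Treg arrays at 0.0617 and Th1 arrays at -0.158. With the replicate block the counts for acetate were 2, 2, 3 and 4 in Th17, Treg, Th1 and the mean. With the Th1 pairs crossed, a setting chosen after seeing the data, they were 3, 3, 4 and 5, and 1 for the difference of acetate effects. No detection calls were used here, so levels near that of the filter, as those of Cd40lg, have no check against background.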
